A study of Mus musculus with 6 samples.

Results

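Gfap, Aqp4, S100b, Vim and Stat3 were followed in brain RNA of 21-day-old offspring whose dams had eaten a high-fat diet (MHFD, n = 3) or a normal diet (MND, n = 3). They were taken from the gene table by their rat Ensembl identifiers, and they are 5 of the 32623 genes listed. All 5 passed the filter on low counts, which left 16776 genes for testing. The study asked how the diet of the mother changes the brain and its astrocytes in the offspring. Dams of the MHFD group ate the high-fat diet before mating, during pregnancy and while suckling, and dams of the MND group ate the normal diet throughout. The age was 21 days in both groups, the last day of lactation, so every pup had been raised by its own group's dams and none had received a stroke or FGF21. The sample labels give mouse, strain C57BL/6, whereas the study describes Sprague-Dawley rats and all identifiers of the table are those of rat. Each library came from the brain of 1 animal, and the sources used here give neither its litter nor its sex.

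Astrocytes are the glial cells that take up transmitters, handle water and ions around vessels and respond to injury. GFAP and vimentin are the proteins of their intermediate filaments, and both are known to build up when astrocytes become reactive. Aquaporin-4 is the water channel of the astrocyte endfeet that cover brain vessels. S100B is a calcium-binding protein made mainly by mature astrocytes, and STAT3 is a transcription factor downstream of cytokines of the interleukin-6 family that is needed for astrocyte formation and for the reactive state. Vim is also made by vessel, ependymal and meningeal cells, and Stat3 by most cell types. The libraries are of whole tissue, so fewer cells of a type and less RNA per cell cannot be told apart.

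The libraries held from 43679373 to 61385917 counts. Of the variance of log2 CPM (gene counts relative to library size, scaled by TMM) over the tested genes, the first principal component held 30.4% and did not part the groups. The second held 24.3% and set MND replicates 1 and 2, at 43.1 and 58.2, apart from the other libraries, which lay between -39.0 and -15.7. MND replicate 3 therefore lay nearer to the MHFD libraries than to the rest of its own group on that component. No batch is named in the labels, so no value within a batch could be given. All 5 genes were well covered, with at least 2940 counts in every library. Gfap, Aqp4 and S100b, the markers used here for astrocytes, were thus present in each brain.

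None of the 5 genes differed between the MHFD and MND groups at an adjusted p under 0.05 in edgeR's quasi-likelihood test, beside 1 of 16776 tested genes (0.00596%). At an unadjusted p under 0.05, 1 of the 5, Stat3, was called, beside 1456 of the 16776 genes (8.68%). The same gene was the only one of the 5 whose groups did not overlap, which was seen for 13.9% of tested genes. The log2 fold change was above 0 for S100b, Vim and Stat3 and below 0 for Gfap and Aqp4. The median log2 fold change of the 5 genes was 0.11, against 0.0023 over all tested genes, and the median of the absolute values was 0.21 against 0.17.

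**Figure D1:**
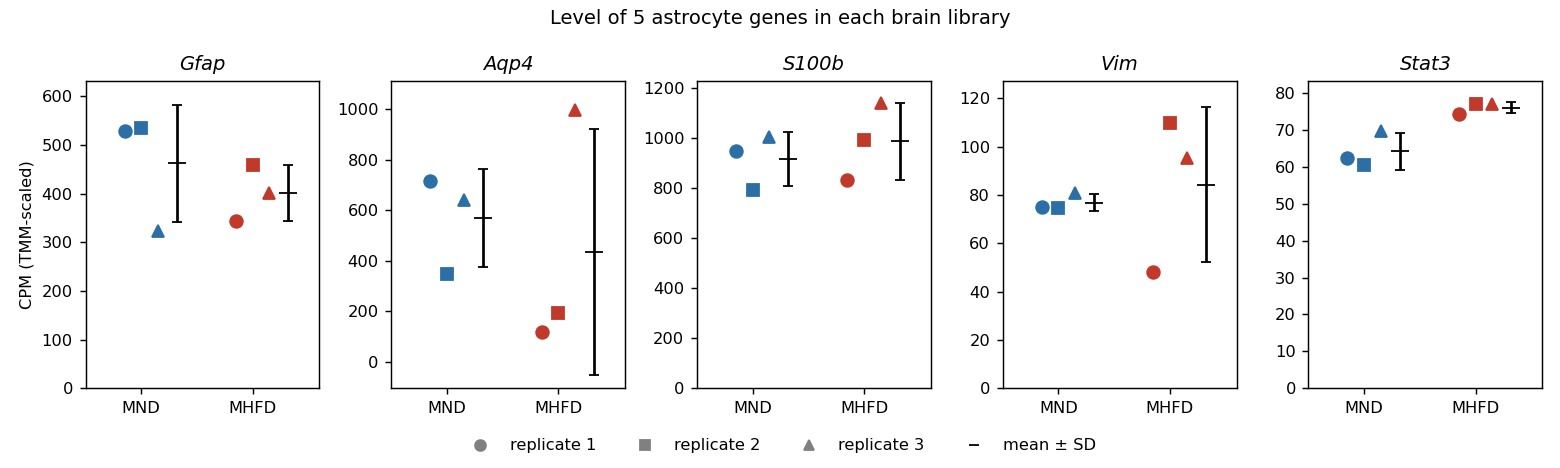
Level of each gene in each library in CPM after TMM scaling, with MND in blue and MHFD in red; symbols mark the replicate number and black bars the mean ± SD of 3 libraries. Only the Stat3 groups do not overlap, and Aqp4 spans 118 to 996 CPM within the MHFD group.

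Gfap (ENSRNOG00000002919), which encodes the filament protein used to stain astrocytes, stood at 344 CPM in MHFD replicate 1, 459 in replicate 2 and 401 in replicate 3. In MND replicates 1 to 3 the values were 529.8, 534 and 323 CPM. MND replicates 1 and 2 were the highest of all libraries and MND replicate 3 was the lowest, so the MHFD values lay inside the range of the MND group. The MHFD group averaged 401 ± 57.8 CPM and the MND group 462 ± 121 CPM (SD, n = 3 each). The log2 fold change, -0.21 ± 0.22 (standard error), was smaller than the spread between animals (edgeR's test, adjusted p = 0.809). Its 95% interval ran from 0.609-fold to 1.24-fold, so neither a fall nor a rise within these bounds could be told from no change with 3 animals against 3. Without MND replicate 3 the log2 fold change was -0.41, with an unadjusted p of 0.0302 and an adjusted p of 0.424 in edgeR's test. It was closer to 0 without MHFD replicate 1 (-0.11), MND replicate 1 (-0.10) or MND replicate 2 (-0.09), and -0.31 without MHFD replicate 2, with adjusted p-values of at least 0.867. The high Gfap of MND replicates 1 and 2 went with their place on the second principal component, and the part of that difference in the Gfap values was not tested.

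Stat3 (ENSRNOG00000019742) stood at 74.3 CPM in MHFD replicate 1, 77.0 in replicate 2 and 77.1 in replicate 3. In MND replicates 1 to 3 it stood at 62.4, 60.4 and 69.8 CPM. Every MHFD library was above every MND library. The mean was 76.1 ± 1.56 CPM against 64.2 ± 4.91 CPM (SD, n = 3 each). On the log2 scale the change was 0.25 ± 0.087 (standard error), or 1.19-fold with a 95% interval from 1.03-fold to 1.37-fold. The unadjusted p was 0.0260 and the adjusted p 0.543 in edgeR's quasi-likelihood test, and 800 genes of the table stood at or before Stat3 in the order of p. A larger absolute change than that of Stat3 was found in 37.7% of tested genes, so its small p went with a small spread rather than a large difference. Over the fits that each left out 1 library, the unadjusted p ran from 0.00950 to 0.0888, and it was under 0.05 without MHFD replicate 1 and without MND replicate 3 only. With the replicate number as a block it was 0.0537 in edgeR's test. The lowest Stat3 values were those of MND replicates 1 and 2, the same libraries that were highest in Gfap.

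**Figure D2:**
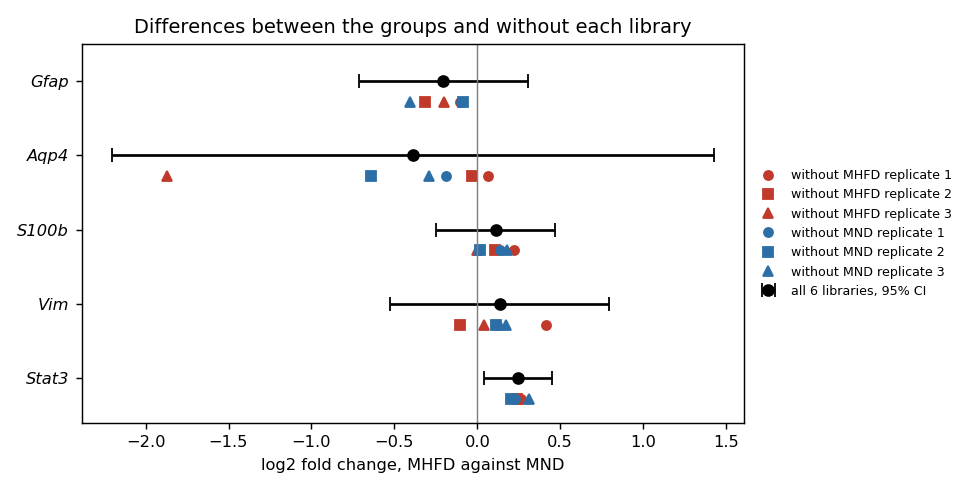
Log2 fold change of MHFD against MND for each gene, with the 95% interval from all 6 libraries in black and, under it, the values without each library in turn. Stat3 stays between 0.20 and 0.31, whereas Aqp4 runs from -1.87 to 0.06.

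Aqp4 (ENSRNOG00000016043), the endfoot water channel, varied most of the 5 genes. It stood at 118 CPM in MHFD replicate 1, 193 in replicate 2 and 996 in replicate 3. In MND replicates 1 to 3 the values were 717, 349 and 642 CPM. The MHFD group held both the lowest libraries and the highest one, an 8.47-fold range within the group, against 2.06-fold among the MND libraries. The MHFD group averaged 436 ± 487 CPM and the MND group 569 ± 195 CPM (SD, n = 3 each). The log2 fold change was -0.39 ± 0.77 (standard error; edgeR's test, adjusted p = 0.911). The 95% interval, from 0.217-fold to 2.69-fold, leaves the direction undecided. The value also moved with the fit, to -0.92 with limma-voom (adjusted p = 0.741) and to -0.93 with the replicate block (adjusted p = 0.823 in edgeR's test). Without MHFD replicate 3 it was -1.87, with an unadjusted p of 0.00288 and an adjusted p of 0.867 in edgeR's test. Without MHFD replicate 1 it was 0.06, with an adjusted p of 0.978.

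S100b (ENSRNOG00000001295), the calcium-binding protein of mature astrocytes, stood at 831 CPM in MHFD replicate 1, 991 in replicate 2 and 1138 in replicate 3. In MND replicates 1 to 3 the values were 947, 794 and 1002 CPM. The groups overlapped, with the highest library in the MHFD group and the lowest in the MND group. The mean was 987 ± 153 CPM against 914 ± 108 CPM (SD, n = 3 each). The log2 fold change was 0.11 ± 0.15 (standard error; edgeR's test, adjusted p = 0.861), with a 95% interval from 0.841-fold to 1.39-fold. A 2-fold difference in either direction lay outside this interval.

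Vim (ENSRNOG00000018087), the gene of the filament protein vimentin, stood at 48.0 CPM in MHFD replicate 1, 109.7 in replicate 2 and 95.1 in replicate 3. In MND replicates 1 to 3 the values were 75.0, 74.5 and 80.9 CPM. The MND libraries lay close together, MHFD replicates 2 and 3 were above all of them, and MHFD replicate 1 was below all of them. The MHFD group averaged 84.3 ± 32.2 CPM and the MND group 76.8 ± 3.56 CPM (SD, n = 3 each). The log2 fold change was 0.13 ± 0.28 (standard error; edgeR's test, adjusted p = 0.914). Without MHFD replicate 1 it was 0.42, with an unadjusted p of 0.00590 and an adjusted p of 0.138 in edgeR's test. Without MHFD replicate 2 it was -0.10, with an adjusted p of 0.990, and without MHFD replicate 3 it was 0.04, with an adjusted p of 0.997. It was 0.05 with limma-voom (adjusted p = 0.971) and with the replicate block (adjusted p = 0.979 in edgeR's test). The direction of Vim therefore turned on a single MHFD library.

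**Figure D3:**
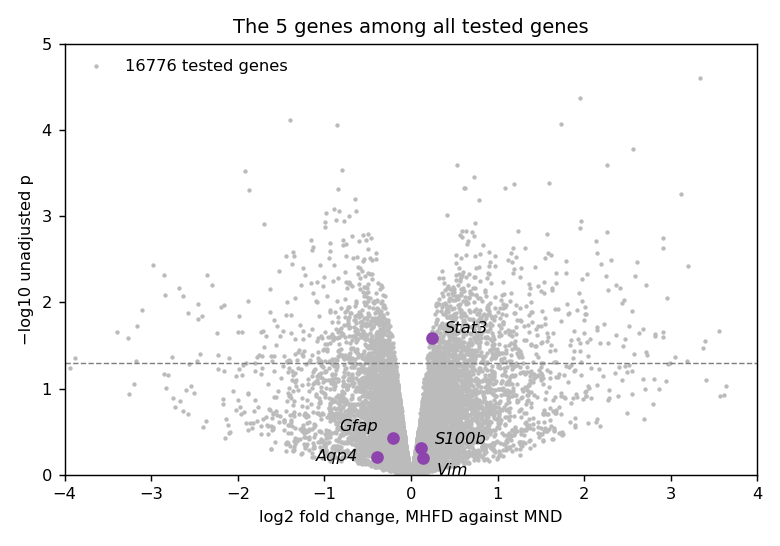
Log2 fold change of MHFD against MND (x axis) and the negative log10 of the unadjusted p of edgeR's quasi-likelihood test (y axis) for all tested genes in grey, with the 5 genes in purple; the dashed line marks an unadjusted p of 0.05 and 26 genes lie outside the axes. Stat3 is the only one of the 5 above the line, among 1456 tested genes.

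The spread between animals of 1 group differed widely among the 5 genes. The pooled SD of log2 CPM within groups was 1.21 for Aqp4, 0.45 for Vim, 0.33 for Gfap, 0.20 for S100b and 0.08 for Stat3. Among the 498 tested genes within 1 log2 unit of Aqp4 in mean level, only 2 had a larger SD, and the median range from the lowest to the highest of the 6 libraries was 1.38-fold against 8.47-fold for Aqp4. The SD of Vim exceeded that of 94.8% of the genes of like level, that of Gfap 85.4% and that of S100b 63.5%. The SD of Stat3 exceeded that of 16.4% of its genes of like level.

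**Figure D4:**
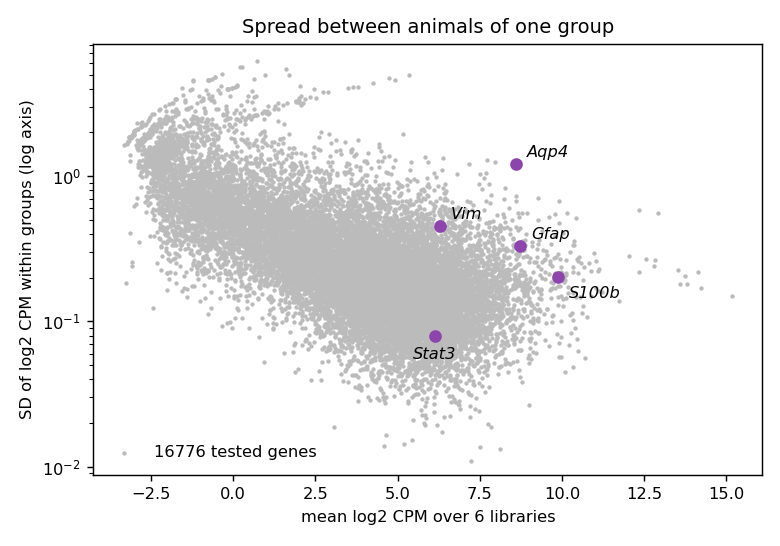
SD of log2 CPM within groups (log axis) against the mean log2 CPM over the 6 libraries for all tested genes in grey and the 5 genes in purple; means of different genes are not corrected for length. Aqp4, with an SD of 1.21, lies at the upper edge of genes of its level, and Stat3, with 0.08, in the lower part.

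The order of the libraries differed among the 5 genes. MHFD replicate 1 was the lowest library for Aqp4 and Vim and the second lowest for Gfap and S100b, but its Stat3 was above that of every MND library. MHFD replicate 3 was the highest for Aqp4, S100b and Stat3 and in the middle of the range for Gfap. MND replicate 2 was the highest for Gfap and the lowest for S100b and Stat3. Over the 10 pairs of genes, Pearson's r of log2 CPM across the 6 libraries ran from -0.60 for Gfap and Stat3 to 0.67 for S100b and Vim. S100b also had a positive r with Aqp4, 0.63, and with Stat3, 0.57. The only other negative values were those of Gfap with S100b, -0.25, and of Aqp4 with Stat3, -0.24. For Gfap and Stat3, Spearman's rho was -0.49, with a raw p of 0.218 for r and 0.356 for rho in exact two-sided permutation tests. Without the 2 libraries farthest from the median of Gfap (MND replicate 3 and MHFD replicate 1) r was -0.91. The libraries left were MND replicates 1 and 2 and MHFD replicates 2 and 3, and no p was computed. Of these, both MND libraries were higher in Gfap and lower in Stat3. This r of -0.91 therefore cannot be told apart from the difference between the groups. Over all 6 libraries, with values taken as deviations from the group means, r of Gfap and Stat3 was -0.74. Its p was 0.25 in an exact permutation test within groups (adjusted p = 0.5 over the 10 pairs). For S100b and Vim, rho was 0.77, with a raw p of 0.138 for r and 0.103 for rho in the exact permutation tests. Without MND replicate 2 and MHFD replicate 3, r was 0.91 over the libraries left, and no p was computed. Without these same libraries, r of S100b and Stat3 changed sign, to -0.14. Leaving out the 2 libraries farthest from the median of the first gene also changed the sign of r for other pairs. It became -0.29 for Gfap and Aqp4, -0.74 for Gfap and Vim and 0.80 for Aqp4 and Stat3. All remaining pairs kept their sign. No pair passed an adjusted p of 0.05. The smallest was 0.604 for r of log2 CPM and 0.593 for rho over the 10 pairs (exact permutation tests, Benjamini-Hochberg). For r of the deviations from the group means it was 0.417 (exact permutation tests within groups, Benjamini-Hochberg). With 6 libraries, this does not show that the genes vary independently.

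**Figure D5:**
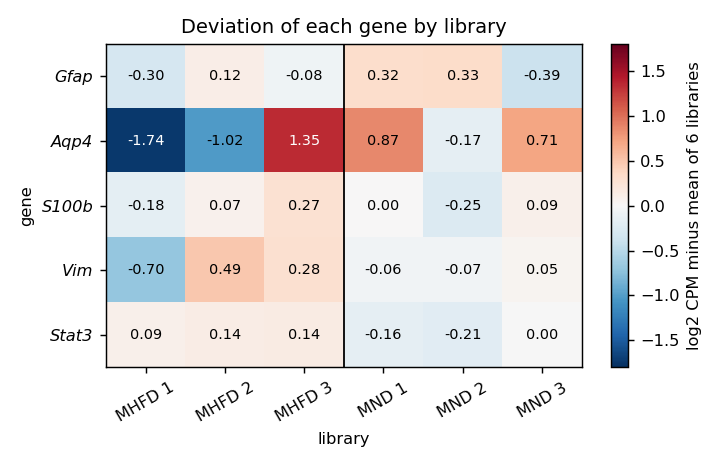
Log2 CPM of each gene in each library minus the mean of the gene over the 6 libraries, with MHFD libraries left and MND libraries right of the line. Aqp4 runs from -1.74 in MHFD replicate 1 to 1.35 in MHFD replicate 3, and Gfap is at 0.32 and 0.33 in MND replicates 1 and 2 against -0.39 in MND replicate 3.

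Ratios of Gfap to the other genes within a library do not depend on how libraries are scaled. The ratio of Gfap to Stat3 counts was 4.62 in MHFD replicate 1, 5.96 in replicate 2 and 5.20 in replicate 3. In MND replicates 1 to 3 it was 8.48, 8.83 and 4.63. It was lower in the MHFD group by a log2 difference of -0.43, and the value of MND replicate 3 lay inside the MHFD range (exact two-sided permutation test, p = 0.3, adjusted p = 0.667 over the 4 ratios). The ratio of Gfap to S100b was 0.413, 0.463 and 0.352 in the MHFD libraries and 0.560, 0.673 and 0.323 in the MND libraries, in the same order, with a log2 difference of -0.28 (exact permutation test, p = 0.5). The differences for the ratio of Gfap to Aqp4, 0.77, and to Vim, -0.23, were also within the spread between libraries (exact permutation tests, p = 0.5 and p = 0.9). Single libraries moved these differences: leaving out each in turn, they ran from -0.73 to -0.26 for Stat3 and from -0.59 to -0.06 for S100b, each from without MND replicate 3 to without MND replicate 2. For Aqp4 they ran from 0.24 without MHFD replicate 1 to 1.67 without MHFD replicate 3, and for Vim from -0.51 without MND replicate 3 to -0.08 without MND replicate 2. With 3 animals against 3, such a test cannot give a p below 0.1.

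Among the 14498 genes that averaged 1 CPM or more, 49 followed Gfap across the 6 libraries and 54 followed Stat3 at a Pearson's r of at least 0.95. The median number for a gene of the table was 36, so the profiles of Gfap and Stat3 were shared about as often as those of other genes. The numbers were 26 for Aqp4, 56 for S100b and 53 for Vim. The profiles most like Gfap were those of ENSRNOG00000060614 and ENSRNOG00000061403, both with an r of 0.99 over 6 libraries. ENSRNOG00000060614 averaged 22.7 ± 7.76 CPM in MHFD and 31.3 ± 16.0 CPM in MND libraries (SD, n = 3 each), and like Gfap it was lowest in MND replicate 3, with 13.2 CPM. The profiles most like Stat3 were those of ENSRNOG00000014862 and ENSRNOG00000009450, again with an r of 0.99 each. ENSRNOG00000009450 stood at 10.6, 13.7 and 11.0 CPM in MHFD replicates 1 to 3 and at 4.09, 3.90 and 7.46 CPM in MND replicates 1 to 3, a wider gap in proportion than that of Stat3. These 4 genes were picked out of all 14498 by their likeness over 6 libraries, and their symbols are not paired with the identifiers in the files.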

How the data were processed

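Brain RNA of 6 offspring, 3 MHFD and 3 MND, was sequenced by a service company. The authors deposited whole counts per gene, without normalization. The submitters' notes name Bowtie and mm10, a mouse build, with no role, whereas the identifiers are those of rat; the counting program and annotation release are not given in the sources used here. None of the 32623 identifiers matched the mouse reference tables, so positions, sequences, gene lengths and the planned lists of other astrocyte, Stat3 pathway and cell type genes were not used here. The symbols of the 5 genes came with their selection, and levels are not compared between genes. The genes and lists were chosen with earlier results of these data known.

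All genes were tested with edgeR 4.0.16 in R 4.3.3: filterByExpr (minimum count 10, minimum total 15), TMM and the quasi-likelihood test with group as the only term, adjusted by Benjamini-Hochberg. The standard error was the absolute log2 change over the root of F, and log2 CPM has a prior count of 2. Ratios used counts plus 2. The programs were tested on simulated data. Alternatives were other normalizations, no filter, DESeq2 1.42.0, limma-voom (limma 3.58.1), counts divided by 4, the replicate block and each library left out. The 2 genes most like Gfap and the 2 most like Stat3 in Pearson's r were named by rule. No pair of libraries within a group was a copy (chi-square per gene at least 31.1). Where litters are not known, p-values measure the spread between these animals only.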

Additional observations from a re-analysis of the deposited data

How the results depend on the processing

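None of the 5 genes passed an adjusted p of 0.05 under any alternative run, and the log2 fold changes of Gfap, S100b and Stat3 kept their sign in all of them. Leaving out each library in turn, log2 fold changes lay between -0.41 and -0.09 for Gfap, -1.87 and 0.0615 for Aqp4, 0.00044 and 0.22 for S100b, -0.10 and 0.42 for Vim, and 0.20 and 0.31 for Stat3. Over the other alternatives Gfap ran from -0.21 to -0.17, Aqp4 from -0.93 to -0.38, S100b from 0.11 to 0.12, Vim from 0.05 to 0.15 and Stat3 from 0.24 to 0.26. At an adjusted p under 0.05, the tested genes called (1) became 198 with DESeq2's Wald test, 0 with limma-voom (beside 1424 by unadjusted p), 0 after division of the counts by 4 (beside 1371), and 0 to 28 with each library left out (0 without MHFD replicate 3, beside 902, and 28 without MHFD replicate 1). The number at an unadjusted p under 0.05 (1456) ran from 818 without MHFD replicate 2 to 2904 without MHFD replicate 1. The cause was not tested. As deviations from the group means, the correlation of Gfap and Aqp4 was -0.0048 against 0.13, and that of Aqp4 and Stat3 was 0.35 against -0.24. The differences of the 4 ratios kept their sign in every fit, though single libraries moved their size by more than 1.5 times.

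With the replicate block, 0 genes had an adjusted p under 0.05 in edgeR's test, beside 1078 at an unadjusted p under 0.05, and the log2 fold change was -0.18 for Gfap, -0.93 for Aqp4, 0.11 for S100b, 0.05 for Vim and 0.25 for Stat3. Same-numbered libraries share only a number: their deviations from the group means correlated at -0.0866, 0.00108 and -0.144, and no MHFD library correlated best with the MND library of its own number.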

Other observations

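The following values were singled out after they were seen. Aqp4 held 43595 counts in MHFD replicate 3, the highest of the 6 libraries, although this library had the smallest total, and 7196 counts in MHFD replicate 1, the lowest of the 6, although this library had the largest total. The same MHFD replicate 1 was the lowest library for Vim, at 48.0 CPM, while its S100b, at 831 CPM, was above that of MND replicate 2, at 794 CPM. As deviations from the group means, Aqp4 and S100b correlated at 0.88 over the 6 libraries (exact permutation test within groups, p = 0.0833, adjusted p = 0.417 over the 10 pairs, smallest possible p 0.0278). Without subtraction of the group means, r of this pair was 0.63 (exact permutation test, p = 0.178). The smallest p within groups was that of Vim and Stat3, 0.0556 at an r of 0.36 (same test within groups, adjusted p = 0.417).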
